A study of Mus musculus with 6 samples.

Results

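The 10 genes of the activin and inhibin system that were followed in mouse liver are the beta subunit genes Inhba, Inhbb, Inhbc and Inhbe, the antagonist genes Fst and Fstl3, and the receptor genes Acvr1b, Acvr1c, Acvr2a and Acvr2b. They are 10 of the 45706 genes in the count table. The genes were chosen by measured values of this same genotype contrast, in which Inhbe was low in the knockout, and by gene family for the others, so their differences between genotypes are given as description and carry no p-value. Of the 6 libraries, 3 came from livers of mice with a knockout of Entpd8 (KO), the gene for NTPDase8, a hepatic ectoenzyme that breaks down extracellular nucleotides. The other 3 came from wild type livers (WT). The study concerns this enzyme in liver ischemia, but the labels of the libraries give only tissue and genotype. They name no strain, sex, age, operation, agent or time, nor the way the allele was made. All mice lived in a specific-pathogen-free facility. Since the labels do not tie each library to an animal of its own, a p-value here measures only the spread between these libraries, which may be technical.

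Activins are dimers of beta subunits and belong to the TGF-beta superfamily. They bind a type II receptor (ACVR2A or ACVR2B), which recruits and phosphorylates a type I receptor (ACVR1B, also called ALK4, or ACVR1C, also called ALK7), and the type I receptor phosphorylates SMAD2 and SMAD3. Inhibins pair a beta subunit with the alpha subunit encoded by Inha, and follistatins bind activins outside the cell and block receptor access. Hepatocytes are the main source of the subunits beta C (Inhbc) and beta E (Inhbe). Activin E is known as a liver-secreted hormone that acts through ALK7 on adipocytes and restrains lipolysis. In human cell lines INHBE transcription is known to respond to endoplasmic reticulum stress and to insulin, so genes of both responses are described as well.

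A stretch upstream of Inhbe is shown because it holds the 8 letters TTGCATCA, the core of the amino acid response element that ATF4 binds together with C/EBP proteins in the integrated stress response. The search covered TGATGCAA on both strands in RefSeq windows of GRCm38.p6, each reaching from 250 bases before to 50 bases after a gene start. Windows were found for 9 of the 10 genes, and Inhbe alone among these held the letters. In all, 294 of 32851 windows held them (0.895%). Among 26 genes listed for the integrated stress response, 22 had a window and 6 held the letters, and these 6 are shown for comparison with Inhbe. Slc7a11 held a second match, TGATGCAA beginning 66 bases before its start, and the stretch given for it is the match nearer the start. Each stretch runs 5′ to 3′ on the strand of its gene, and the capitals mark the 8 letters.
Inhbe: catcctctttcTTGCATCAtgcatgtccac
Atf3: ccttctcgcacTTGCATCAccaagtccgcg
Chac1: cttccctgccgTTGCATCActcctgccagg
Fgf21: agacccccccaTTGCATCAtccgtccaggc
Nupr1: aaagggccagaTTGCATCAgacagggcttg
Slc7a11: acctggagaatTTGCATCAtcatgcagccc
Vldlr: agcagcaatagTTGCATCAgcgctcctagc

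The Inhbe stretch lies at chr10:127352011-127352040 on the minus strand, and its letters begin 181 bases before the RefSeq start of the gene. In the GENCODE M21 annotation Inhbe starts 2563 bases further upstream, so there the stretch is transcribed 5′ UTR and not promoter. By the GENCODE M21 spans the stretches of Atf3, Nupr1 and Vldlr also lie inside the annotated gene, and those of Chac1, Fgf21 and Slc7a11 lie before its start. The other stretches lie at chr1:191183425-191183454 (Atf3, minus strand), chr2:119351038-119351067 (Chac1, plus strand), chr7:45615611-45615640 (Fgf21, minus strand), chr7:126625562-126625591 (Nupr1, minus strand), chr3:50443642-50443671 (Slc7a11, minus strand) and chr19:27216809-27216838 (Vldlr, plus strand). Neither of the other 2 motifs searched, the cyclic AMP response element TGACGTCA (1.79% of all windows) and the palindromic Smad box GTCTAGAC (0.213%), occurred in a window of the 9 genes. A match or its lack describes these letters in these windows and nothing about binding.

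Poly(A) RNA libraries held between 40800058 and 46473531 counts in KO livers and between 32768774 and 39929978 counts in WT livers. Entpd8 had 15, 29 and 52 counts in KO livers 1 to 3, against 1416, 876 and 2034 counts in WT livers 1 to 3 (log2 fold change -5.72 ± 0.48 (SE), adjusted p = 0.00151 by edgeR's quasi-likelihood test). Of 14069 genes tested across the table, 2871 (20.4%) passed an adjusted p of 0.05, 1379 of them higher (9.8%) and 1492 lower (10.6%) in KO livers. Without KO liver 1 the count was 603, without KO livers 2 and 3 it was 1594 and 1744, and without WT liver 1 it was 1653. The 3 KO values did not overlap the 3 WT values for 5725 genes (40.7%). Mitochondrially encoded genes held between 10.1% and 11.7% of the counts in KO livers and between 6.52% and 8.34% in WT livers. With these and the hemoglobin genes left out, 2857 genes passed and the log2 fold change of Inhbe stayed at -2.36.

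Inhbe, the gene for beta E, was the beta subunit gene that stood lowest in KO livers relative to WT livers. It lies at chr10:127348857-127354411 on the minus strand (GRCm38). It had 274, 257 and 482 counts in KO livers 1 to 3, against 1457, 1014 and 1962 counts in WT livers 1 to 3. In TPM (counts divided by the length of the longest annotated transcript, per 1000000 of the same quantity summed over the library), these were 2.33, 2.01 and 3.64 TPM in KO livers and 15.2, 9.11 and 22 TPM in WT livers. Every KO liver was below every WT liver, and WT liver 2 was the nearest. The log2 fold change, KO over WT, was -2.36 ± 0.30 (SE), a level 5.12-fold higher in WT livers. Leaving out each library in turn moved it between -2.59 and -2.08.

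Inhbc, the gene for beta C, lies 1910 bases from Inhbe on the same strand, at chr10:127356322-127370431. It had 30.1, 29.2 and 30.8 TPM in KO livers 1 to 3, against 34.2, 26.0 and 54.0 TPM in WT livers 1 to 3. The KO values lay inside the range of the WT values, and WT liver 3 was the highest. The log2 fold change was -0.15 ± 0.20 (SE) and became 0.12 when WT liver 3 was left out. Thus the neighbour and closest relative of Inhbe in this organ had overlapping values between the genotypes. An antisense gene that GENCODE M21 annotates over both was not analysed here, and without strand its reads and theirs cannot be told apart. The same holds for genes annotated on the opposite strand over Inhba, Fst and Acvr2b.

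Inhba, the gene for beta A, whose homodimer activin A restrains hepatocyte growth, differed in the other direction. It lies at chr13:16011851-16031621. Its counts were 254, 351 and 309 in KO livers 1 to 3, against 140, 81 and 70 in WT livers 1 to 3. The corresponding levels were 1.80, 2.29 and 1.94 TPM in KO livers and 1.21, 0.605 and 0.653 TPM in WT livers. Every KO liver was above every WT liver, and WT liver 1 was the nearest. The log2 fold change was 1.46 ± 0.29 (SE), which is 2.76-fold. Leaving out each library in turn moved it between 1.28 and 1.84.

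Inhbb, the gene for beta B, lies at chr1:119415465-119422248. It had 11.2, 7.20 and 19.2 TPM in KO livers 1 to 3, against 9.07, 14.1 and 5.99 TPM in WT livers 1 to 3. The values overlapped and spread widely within each genotype, with KO liver 3 highest and WT liver 3 lowest. The log2 fold change was 0.47 ± 0.42 (SE), between 0.10 without KO liver 3 and 0.91 without WT liver 2. Inha, the alpha subunit gene that inhibins need, had too few counts to enter the test.

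**Figure D1:**
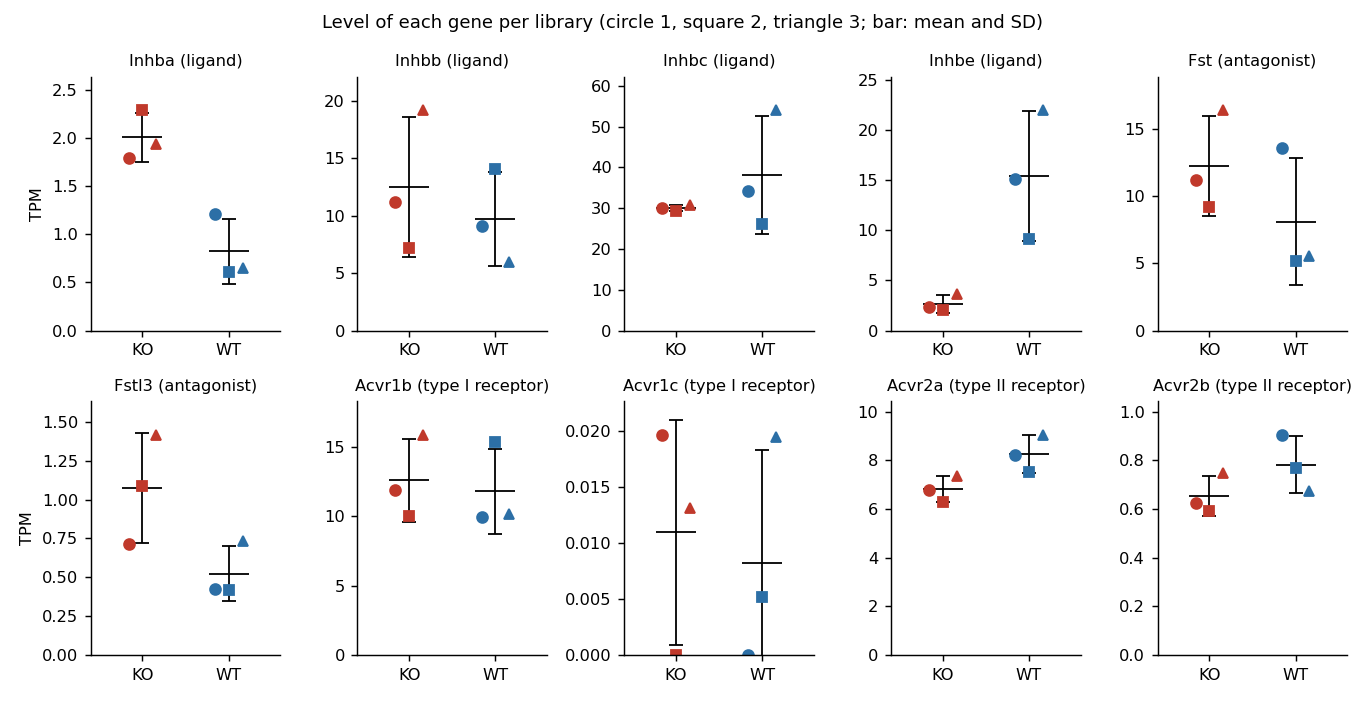
Level of each of the 10 genes in TPM (vertical axis, from 0, own scale per panel) in each KO liver (red, left) and WT liver (blue, right), with circles for library 1, squares for 2, triangles for 3, and bars for mean and SD (n = 3 each). Inhbe lies between 2.01 and 3.64 TPM in KO livers and between 9.11 and 22 TPM in WT livers, while Inhbc overlaps between the genotypes and Acvr1c rests on at most 4 counts per library.

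The makeup of the beta subunit transcripts followed these differences. The 4 genes together summed to 47.3 ± 7.60 TPM in KO livers and 64.1 ± 16.9 TPM in WT livers (SD, n = 3 each), and the KO sums of 45.4, 40.7 and 55.6 TPM overlapped the WT sums of 59.7, 49.8 and 82.7 TPM. Inhbe made up 5.12%, 4.95% and 6.55% of the sum in KO livers 1 to 3, against 25.4%, 18.3% and 26.6% in WT livers 1 to 3. The Inhbe shares did not overlap between genotypes. With the longest transcripts as length, Inhbc was the most abundant subunit in all 6 livers, at 64.5 ± 8.31% in KO livers and 58.3 ± 6.63% in WT livers. Inhbb made up 25.6 ± 8.47% in KO livers and 16.9 ± 10.6% in WT livers. Inhba made up 4.36 ± 1.12% in KO livers and 1.35 ± 0.631% in WT livers, the smallest mean share in both genotypes.

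**Figure D2:**
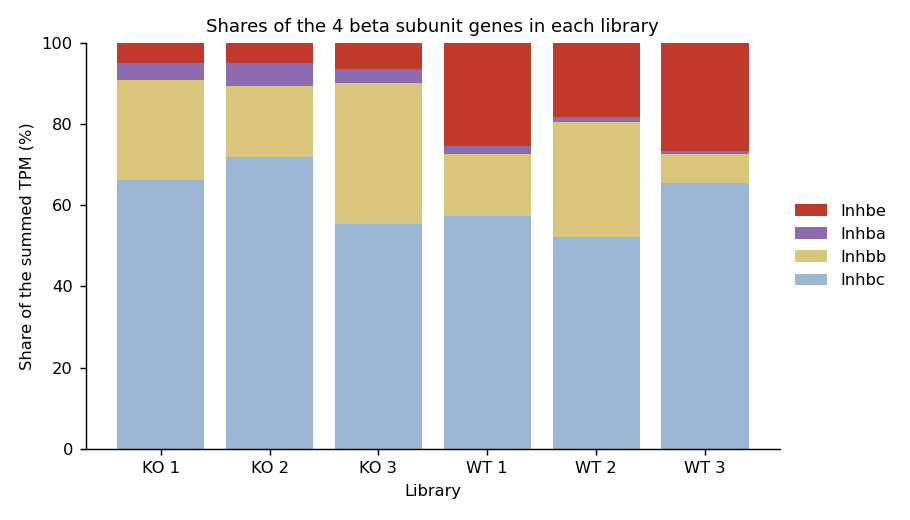
Share of each beta subunit gene in the summed TPM of Inhba, Inhbb, Inhbc and Inhbe (vertical axis, percent, stacked to the whole) in each KO liver (left) and WT liver (right). The Inhbe part is between 4.95% and 6.55% in KO livers and between 18.3% and 26.6% in WT livers.

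The ratio of Inhbe to Inhbc compares these neighbours within a library, where scaling between libraries cancels. It was 0.0773, 0.0689 and 0.118 in KO livers 1 to 3, against 0.443, 0.35 and 0.407 in WT livers 1 to 3. The WT ratios lay close together although the levels of both genes differed between WT livers, and all KO ratios were below them. The size of the ratio rests on the transcript length used for Inhbe. With the 2211 exon bases inside the shorter RefSeq gene (chr10:127349402-127351848) in place of the 5319 bases of the longest GENCODE transcript, it was 0.212 ± 0.0634 in KO livers and 0.962 ± 0.113 in WT livers (SD, n = 3 each). By that length Inhbe made up 12.4 ± 1.81% of the subunit transcripts in KO livers and 42.2 ± 6.30% in WT livers, and its level was above that of Inhbc in WT liver 1 (ratio 1.07).

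Among the antagonists, Fst encodes follistatin, which the liver secretes and which binds activin A and activin B tightly. It lies at chr13:114452290-114458951. Its level was 11.2, 9.16 and 16.4 TPM in KO livers 1 to 3, against 13.5, 5.20 and 5.51 TPM in WT livers 1 to 3. WT liver 1 lay within the KO range, and the other WT livers lay below it. The log2 fold change was 0.75 ± 0.38 (SE), and 1.34 without WT liver 1. Relative to Inhba, Fst stood at 6.24, 4.0 and 8.42 in KO livers and at 11.2, 8.59 and 8.44 in WT livers, as a ratio of TPM. Every WT ratio was above every KO ratio, by a narrow margin between KO liver 3 and WT liver 3.

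Fstl3 encodes the follistatin-like protein FSTL3, which also neutralises activins and lies at chr10:79777272-79782630. It had 31, 51 and 69 counts in KO livers 1 to 3, against 15, 17 and 24 counts in WT livers 1 to 3. In TPM the KO values of 0.716, 1.09 and 1.42 overlapped the WT values of 0.425, 0.415 and 0.732 at KO liver 1 and WT liver 3. In CPM (counts per 1000000 of the library, scaled between libraries by edgeR's trimmed mean of M-values) the genotypes did not overlap. The log2 fold change was 1.21 ± 0.37 (SE), from few counts.

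Of the type I receptors, Acvr1b (ALK4; chr15:101174067-101213684) had 11.9, 10.03 and 15.9 TPM in KO livers 1 to 3, against 9.92, 15.3 and 10.2 TPM in WT livers 1 to 3. The values overlapped, and the log2 fold change was 0.23 ± 0.23 (SE). Acvr1c (ALK7; chr2:58267453-58357895), the receptor for activin E on adipocytes, had 4, 0 and 3 counts in KO livers and 0, 1 and 3 counts in WT livers. Its transcript was therefore at or near the limit of detection in all 6 livers, and no fold change is given.

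Of the type II receptors, Acvr2a (chr2:48814109-48903269) had the smallest relative spread of the tested genes within each genotype, in CPM. It had 21.8, 21.3 and 21.9 CPM in KO livers 1 to 3, against 23.3, 22.9 and 24.0 CPM in WT livers 1 to 3. The genotypes did not overlap, but the difference was small, with a log2 fold change of -0.11 ± 0.10 (SE). Acvr2a overlaps Orc4 on the opposite strand, which had between 531 and 793 counts in KO livers and between 564 and 761 counts in WT livers. The sources used here do not say whether counting used strand, so reads of the overlap cannot be told apart. Acvr2b (chr9:119402118-119434995) had 0.626, 0.591 and 0.747 TPM in KO livers, against 0.906, 0.767 and 0.676 TPM in WT livers. The values overlapped, and the log2 fold change of -0.10 ± 0.27 (SE) came to 0.0033 without WT liver 1.

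Ordered by mean TPM, the levels in KO livers ran from Inhbc through Acvr1b, Inhbb, Fst, Acvr2a, Inhbe, Inhba, Fstl3 and Acvr2b to Acvr1c. In WT livers they ran from Inhbc through Inhbe, Acvr1b, Inhbb, Acvr2a, Fst, Inhba, Acvr2b and Fstl3 to Acvr1c. Inhbe thus stood just above Inhba in KO livers and just below Inhbc in WT livers. In KO livers the library ranges of neighbours overlapped for Acvr1b with Inhbb, Inhbb with Fst, Inhbe with Inhba, and Fstl3 with Acvr2b. In WT livers they overlapped for every pair of neighbours except Inhbc with Inhbe, Fst with Inhba, and Fstl3 with Acvr1c. With the median transcript length in place of the longest, 3 of the 10 genes kept their place in the order over all 6 livers, so the order depends on the length used.

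Counted together, 9 of the 10 genes had enough counts to be tested, and the one left out was Acvr1c. In the fit across all genes 2 of the 9 passed an adjusted p of 0.05 with edgeR, Inhba higher and Inhbe lower, beside 20.4% of all genes tested (9.8% higher, 10.6% lower). Without KO liver 1 Inhbe alone passed, and without WT liver 1 Fst passed as well. In CPM, 4 of the 9 did not overlap between genotypes (Inhba, Inhbe, Fstl3 and Acvr2a), beside 40.7% of all genes tested. The median log2 fold change was 0.23 over the 9 and -0.02 over all genes. Since the genes were picked with this contrast known, nothing is read from these counts.

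**Figure D3:**
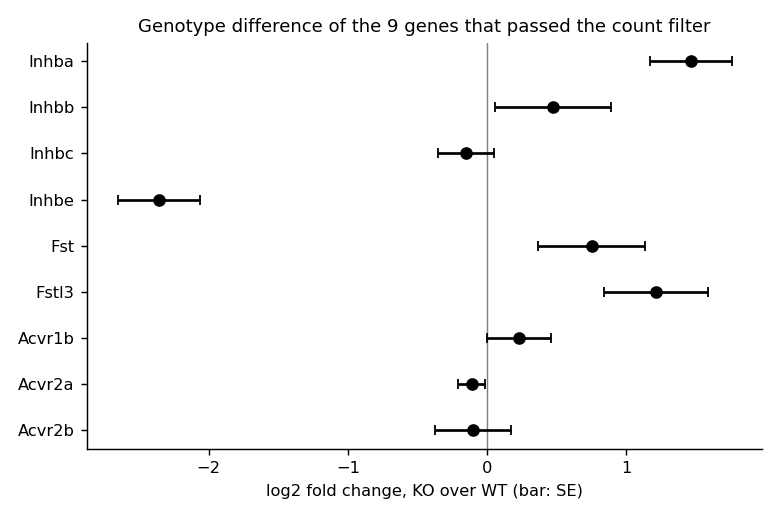
Log2 fold change, KO over WT, of the 9 genes tested (points, with SE as bars) on a horizontal axis centred on no change. Inhbe is at -2.36 and Inhba at 1.46, and the bars of Inhbc, Acvr1b and Acvr2b cross 0.

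The chromosome around Inhbe was described because the gene differed and its direct neighbour Inhbc did not separate. Within 100 kb of the pair lie 12 other genes of the count table, of which 7 were tested. Of these, 1 was higher and 1 was lower in KO livers, beside 9.8% higher and 10.6% lower of all genes tested. The higher one was Ddit3, which encodes the stress-response factor CHOP. It had 18, 19.4 and 20.5 CPM in KO livers 1 to 3, against 7.03, 14.6 and 6.91 CPM in WT livers 1 to 3 (log2 fold change 1.02 ± 0.29 (SE), edgeR adjusted p = 0.0422). Of the 6 fits that each left out 1 library, Ddit3 passed only in the one without WT liver 2, and its highest adjusted p in edgeR was 0.116. The lower one was Mbd6, whose protein carries a methyl-CpG-binding domain, at 19.7 CPM in KO livers and 41.7 CPM in WT livers (log2 fold change -1.08 ± 0.14 (SE), edgeR adjusted p = 0.00416). Mbd6 passed in all 6 of those fits.

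The other 5 tested neighbours did not pass the edgeR test. Their log2 fold changes were 0.17 ± 0.35 (SE) for Kif5a, 0.19 ± 0.11 for Dctn2, -0.14 ± 0.10 for Mars, -0.09 ± 0.37 for Arhgap9 and -0.12 ± 0.14 for R3hdm2. Within 50 kb 3 genes were tested and 0 passed with edgeR, with DESeq2 or limma voom, or at an unadjusted p under 0.05. Within 500 kb 35 were tested, of which 3 were higher and 7 were lower, beside 9.8% higher and 10.6% lower of all genes tested. Ddit3 overlaps Mars on the opposite strand, and reads of that overlap cannot be told apart without strand.

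**Figure D4:**
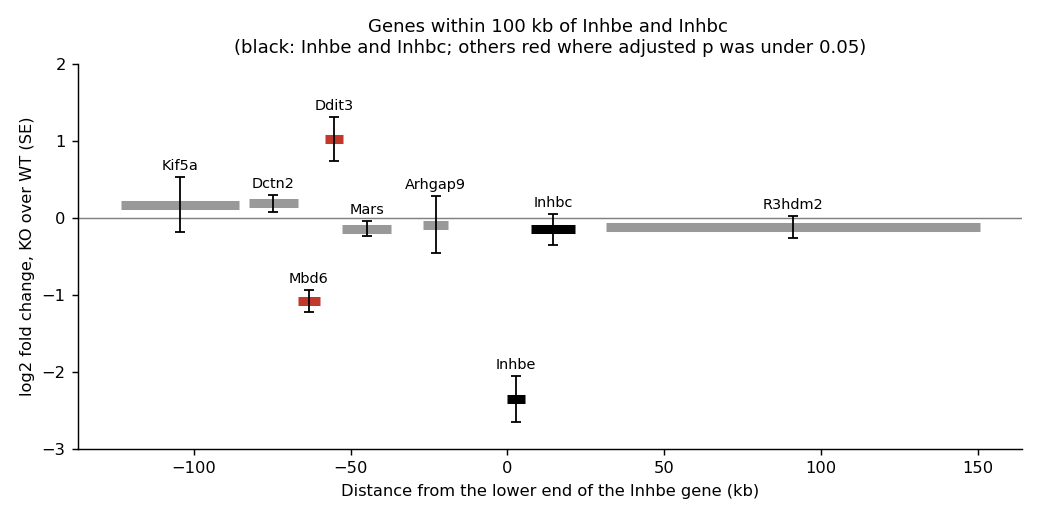
Genes within 100 kb of Inhbe and Inhbc that were tested, drawn at their distance in kb from the lower end of Inhbe (horizontal axis, to scale) and at their log2 fold change, KO over WT (vertical axis, with SE as bars). Inhbe and Inhbc are black, and of the others Ddit3 at 1.02 and Mbd6 at -1.08 are red because they passed an adjusted p of 0.05.

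Genes whose pattern over the 6 livers was most like that of Inhbe were sought among 10387 genes, by the root mean square difference of log2 CPM centred on each gene's mean. The 5 nearest were Nbea (0.144), AI480526 (0.215), Bbs10 (0.284), Ctcflos (0.285) and Acnat2 (0.35). All 5 had lower levels in KO livers than in WT livers. Nbea, which encodes the trafficking protein neurobeachin, had 0.865, 0.822 and 1.09 CPM in KO livers 1 to 3, against 4.49, 2.97 and 5.41 CPM in WT livers 1 to 3. Like Inhbe, it was lowest in WT liver 2 among the WT livers and highest in WT liver 3. The pattern includes the genotype difference itself, so the likeness is a description.

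Other genes of the pathway, and genes of related liver responses, were taken from 9 lists. They cover ligands, receptors, antagonists, SMADs, targets, the integrated stress response, insulin and fasting, and other liver-secreted hormones. The lists hold 156 genes, of which 133 were tested and 46 passed an adjusted p of 0.05 with edgeR, 29 higher and 17 lower (34.6%, beside 20.4% of all genes). The median log2 fold change was 0.23, beside -0.02 over all genes. The share is not that of the TGF-beta family alone. The integrated stress response list had 8 of 26 higher and 2 lower, and the insulin and fasting list 6 of 18 higher and 3 lower. The list of other liver-secreted hormones had 6 of 21 higher and 3 lower. Counts of the other lists follow. Lists share some genes, such as Tgif1, Gdf15 and Fgf21, which each such list counts again, while the totals hold no repeats. All lists were chosen with earlier results of these data known, so nothing is read from the share. Of the 46, 13 passed in every one of the 6 fits that left out a library, and without KO liver 1 there were 13 calls in these lists. No called gene changed sign in these fits.

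Among 17 other TGF-beta family ligands tested, 2 were higher and 3 were lower in KO livers, beside 9.8% and 10.6% of all genes tested. Gdf15, a stress-induced hormone, rose to 145 ± 9.998 CPM in KO livers, against 16.0 ± 8.37 CPM in WT livers (SD, n = 3 each; log2 fold change 3.18 ± 0.35 (SE), edgeR adjusted p = 0.00325). Gdf10, also called BMP3B, fell to 4.66 ± 1.20 CPM in KO livers, against 12.8 ± 2.74 CPM in WT livers (edgeR adjusted p = 0.00845). Gdf2, which encodes BMP9 and is made in liver mainly by stellate cells, fell to 9.38 ± 3.26 CPM in KO livers, against 21.9 ± 2.88 CPM in WT livers (edgeR adjusted p = 0.0168). Bmp5 fell by 0.78 on the log2 scale (edgeR adjusted p = 0.0170). Tgfb3, named after its values were seen, rose by 1.46 (edgeR adjusted p = 0.0422). Gdf2 did not pass without KO liver 1, Bmp5 without KO liver 1 or 2, and Tgfb3 passed only without KO liver 3. Stellate cell markers summed to between 139 and 297 CPM in KO livers and between 205 and 283 CPM in WT livers, and 0 of 7 passed with edgeR. At an unadjusted p under 0.05, 3 of these markers were lower, and DESeq2 called 2 of them lower and limma voom 0. Their part in the lower Gdf2 was not tested.

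Of 9 other receptors and co-receptors tested, 2 were higher and 0 were lower, beside 9.8% and 10.6% of all genes tested. Tgfbr2, the type II receptor for TGF-beta itself, rose to 46.3 ± 6.0 CPM in KO livers, against 29.6 ± 2.37 CPM in WT livers (SD, n = 3 each; edgeR adjusted p = 0.0153), but did not pass without KO liver 1. Acvr1 (ALK2), a type I receptor for bone morphogenetic proteins, rose to 15.5 ± 1.44 CPM in KO livers, against 11 ± 1.18 CPM in WT livers (edgeR adjusted p = 0.0415), and passed only without WT liver 3. Among 8 other extracellular antagonists tested, 1 was higher and 2 were lower, beside the same shares of all genes. Bambi, a decoy receptor, rose by 0.81 on the log2 scale (edgeR adjusted p = 0.0237). Bmper and Chrd, which bind bone morphogenetic proteins, fell by 1.75 and 0.77 (edgeR adjusted p = 0.0298 and 0.0456). None of these 3 passed when KO livers 1, 2 or 3 or WT liver 1 were each left out, and Chrd did not pass without WT liver 3 either.

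Of 20 SMADs and regulators tested, 2 were higher and 1 was lower, beside 9.8% and 10.6% of all genes tested. Smad3, the effector that type I activin receptors phosphorylate, had 52.2, 34.5 and 67.1 CPM in KO livers 1 to 3, against 20.4, 15.1 and 17.7 CPM in WT livers 1 to 3. All KO livers were above all WT livers (log2 fold change 1.53 ± 0.24 (SE), edgeR adjusted p = 0.00762). Tgif1, a corepressor of SMAD2 and SMAD3, rose by 1.08 on the log2 scale (edgeR adjusted p = 0.00679). Zfyve9, the SMAD anchor SARA, fell by 0.39 (edgeR adjusted p = 0.0471) and passed only without WT liver 2. Smad2 and Smad4 had log2 fold changes of 0.26 ± 0.12 (SE) and -0.37 ± 0.13 and did not pass (edgeR adjusted p = 0.152 and 0.0836).

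SMAD2/3 target genes moved in both directions, with 4 of 15 higher and 3 lower, beside 9.8% and 10.6% of all genes tested. Their median log2 fold change was 0.19. Of the higher ones, Tgif1 is also counted in the SMAD list above. The transcription factor gene Snai2 rose to 8.53 ± 1.45 CPM in KO livers, against 2.36 ± 0.525 CPM in WT livers (SD, n = 3 each; edgeR adjusted p = 0.00346). The matrix gene Fn1, for fibronectin, fell to 1329 ± 55.0 CPM in KO livers, against 3047 ± 225 CPM in WT livers (edgeR adjusted p = 0.00328). The collagen gene Col1a2 fell by 1.04 on the log2 scale (edgeR adjusted p = 0.00950), but did not pass without KO liver 1. Of 8 SMAD1/5/9 target genes, 1 passed with edgeR, beside 20.4% of all genes tested. DESeq2 and limma voom each called 3 higher and 1 lower. At an unadjusted p under 0.05, 5 were higher and 1 was lower. The gene that passed with edgeR was Id2, which rose by 1.12 (edgeR adjusted p = 0.0436). Of the fits that left out a library, Id2 passed only in the one without WT liver 2. Atoh8 had a log2 fold change of -1.23 ± 0.38 (SE) and did not pass (edgeR adjusted p = 0.0625). Id1 and Id3 had log2 fold changes of 0.97 ± 0.35 (SE) and 1.16 ± 0.43 and did not pass (edgeR adjusted p = 0.0899 and 0.104), and the median of the list was 1.05.

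The integrated stress response list had 8 of 26 genes higher and 2 lower, beside 9.8% and 10.6% of all genes tested. Its median log2 fold change was 0.53. Atf3, a stress-induced transcription factor, rose to 237 ± 16.5 CPM in KO livers, against 27.2 ± 11.5 CPM in WT livers (SD, n = 3 each; edgeR adjusted p = 0.00187). Ppp1r15a, which encodes GADD34 and restores translation, rose to 86.5 ± 6.30 CPM in KO livers, against 21.9 ± 4.58 CPM in WT livers (edgeR adjusted p = 0.00100). Cth, an enzyme of cysteine synthesis, and Vldlr, a lipoprotein receptor, rose by 1.05 and 1.91 on the log2 scale (edgeR adjusted p = 0.0193 and 0.0202). Neither passed without KO liver 1, and Vldlr did not pass without WT liver 1 either. Atf4 itself had a log2 fold change of 0.56 ± 0.19 (SE) and did not pass (edgeR adjusted p = 0.0680).

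The 7 genes with TTGCATCA near their start did not move together. Inhbe was lower in KO livers, as described. Atf3 and Vldlr rose, as did Fgf21, a fasting and stress hormone, at a log2 fold change of 1.90 ± 0.46 (SE) (edgeR adjusted p = 0.0258, passing only without KO liver 2 or WT liver 1). Chac1, a glutathione-degrading enzyme, and Slc7a11, a cystine transporter, stood at 1.05 ± 0.33 (SE) and 1.04 ± 0.50 without passing (edgeR adjusted p = 0.0638 and 0.172). Nupr1, a stress-induced chromatin protein, stood at -0.56 ± 0.76 (SE) (edgeR adjusted p = 0.637). Fgf21, Chac1, Slc7a11 and Nupr1 are named here for their sequence and not for their p-value.

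Insulin and fasting response genes had 6 of 18 higher and 3 lower, beside 9.8% and 10.6% of all genes tested. Their median log2 fold change was 0.33. Srebf1, the insulin-induced regulator of fat synthesis, rose to 239 ± 25.5 CPM in KO livers, against 42.1 ± 6.82 CPM in WT livers (SD, n = 3 each; edgeR adjusted p = 3.86e-04). Fasn, fatty acid synthase, and Pklr, liver pyruvate kinase, rose by 1.81 and 1.05 on the log2 scale (edgeR adjusted p = 0.00227 and 0.00531). These 3 passed in all 6 fits that left out a library. Pdk4 and G6pc, which insulin represses, rose as well, by 2.11 and 2.03 (edgeR adjusted p = 0.0105 and 0.0479). The insulin receptor gene Insr fell by 0.61 (edgeR adjusted p = 0.0104). No direction of an insulin response is read from these genes. Pdk4, G6pc and Insr were named after their values were seen. Pdk4 and Insr did not pass without KO liver 1, and G6pc passed only without WT liver 1 or WT liver 2.

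**Figure D5:**
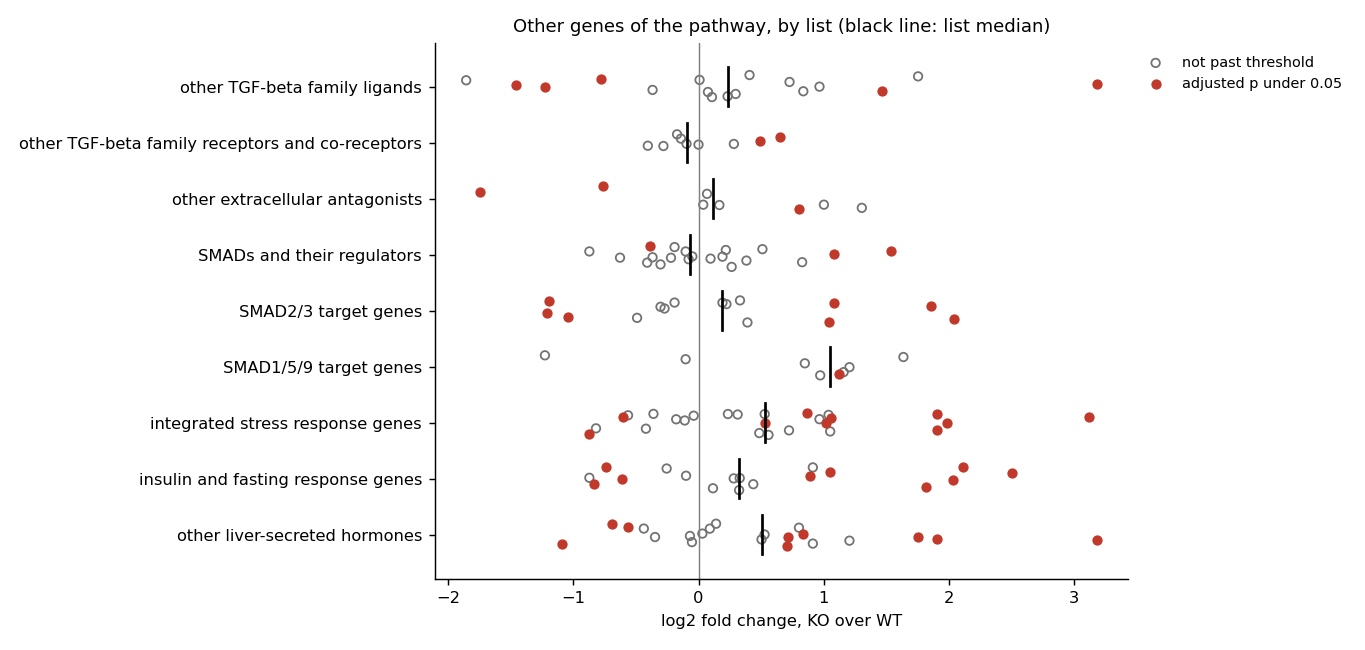
Log2 fold change, KO over WT (horizontal axis), of each tested gene in 9 lists around the activin pathway (rows), filled red where the adjusted p was under 0.05, with a black line at the list median. The medians run from -0.10 for other receptors to 1.05 for the SMAD1/5/9 target genes, beside -0.02 over all genes.

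These libraries are of whole liver, in which fewer cells of a type and less RNA per cell cannot be told apart. The marker calls below stand beside 9.8% higher and 10.6% lower of all genes tested. Hepatocyte markers, the cells known to make Inhbe and Inhbc, summed to between 58167 and 76588 CPM in KO livers and between 51411 and 68980 CPM in WT livers. Kupffer cell markers summed to between 34.9 and 46.9 CPM in KO livers and between 73.0 and 178 CPM in WT livers, with 3 of 6 lower (Clec4f, Cd5l and Vsig4), 1 without KO liver 1 or 3 and 5 without WT liver 2. Biliary epithelium markers summed to between 121 and 312 CPM in KO livers and between 80.4 and 109 CPM in WT livers, with 2 of 5 higher (Krt19 and Epcam). Sinusoidal endothelial markers summed to between 98.5 and 133 CPM in KO livers and between 135 and 166 CPM in WT livers, with 1 of 6 lower (Stab1, which passed only without KO liver 3). Neutrophil markers summed to between 78.5 and 109 CPM in KO livers and between 17.8 and 120 CPM in WT livers, with 0 of 5 past the edgeR threshold, 0 at an unadjusted p under 0.05 and 0 by DESeq2 or limma voom, but 4 of 5 higher without WT liver 1. Red cell markers summed to between 1178 and 1546 CPM in KO livers and between 368 and 546 CPM in WT livers, with all 5 higher. No marker in these lists was at 0 in all 6 livers. The part of these cell types in the values of Inhba, Inhbb, Fst and Fstl3, which other liver cells also make, was not tested.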

How the data were processed

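RNA was extracted from mouse liver with an RNeasy kit, enriched for poly(A) RNA and made into libraries with the NEBNext Ultra II RNA kit, per the labels' protocols. The submitters' processing notes name Trim Galore, STAR, Salmon and the build GRCm38; of versions, strand setting and gene annotation they say nothing. The authors deposited 1 table of expected counts per gene and library for 45706 Ensembl genes. Between 8.38% and 9.32% of all values in a library, those at 0 included, were not whole. Reads shared between genes or transcripts were thus divided by estimation before deposit. Symbols, positions and lengths came from GENCODE M21, which gave a symbol to 45143 genes.

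From there, the expected counts were rounded, filtered with filterByExpr, scaled by the trimmed mean of M-values and tested with edgeR 4.0.16 (robust quasi-likelihood, genotype as the only term, Benjamini-Hochberg adjustment over 14069 genes) in R 4.3.3. Per-library counts and TPM rest on the unrounded counts, and CPM was computed from the rounded counts. The SE is that of the fitted log2 fold change. With 3 libraries against 3, an exact permutation test cannot go below p = 0.1, so no single value was tested that way. On simulated counts (13732 genes) the same steps recovered 145 of 192 genes changed 3-fold and called 10 of 13540 unchanged genes.

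The 10 genes and all gene lists were chosen with earlier results of these data known. Named besides the 10 genes were up to 4 genes per list, those of lowest p whose log2 CPM averaged 0 or more, the tested genes within 100 kb of Inhbe and Inhbc, Entpd8, and the 5 genes most like Inhbe; some genes that these rules or lists name are not reported here, other names are marked as such, and marker genes, Smad2, Smad4 and Atf4 are named for their role. No 2 libraries agreed within counting noise. Alternatives were other scalings, other filters on low counts, DESeq2 1.42.0, limma 3.58.1 with voom, a fit without robust weights, a replicate block, a threshold of 0.1, other transcript lengths, other windows and leaving out each library. Words of 31 bases were shared between transcripts of the 10 genes only by Inhba and Inhbe, 4 in all. Python 3.11.15 and matplotlib 3.10.9 made the figures. The labels give no sequencing batch or date.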

Additional observations from a re-analysis of the deposited data

How the results depend on the processing

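Inhbe had log2 fold changes between -2.59 and -2.08 over 17 alternatives, all of them refits of the contrast it was chosen on, so this range is no independent support. Those of Inhba lay between 1.28 and 1.84, and without KO liver 1 Inhba did not pass an adjusted p of 0.05, so that 1 of the 10 genes passed. Leaving out each library in turn gave between 1 and 3 of the 10 genes past the threshold. Fstl3 passed with DESeq2 and at a threshold of 0.1, giving 3 genes each. Of the genes that did not pass, Inhbc and Acvr2b changed sign in 1 alternative each, and Acvr2a stood at -0.16 with upper-quartile scaling and at -0.19 with library totals alone. Over all genes, leaving out each library gave between 603 and 3080 calls, against 2871. The replicate block gave 1468 calls, and the labels do not say whether equal replicate numbers mark pairs. Deviations of same-numbered libraries correlated between -0.085 and 0.013, and 0 of 3 KO libraries correlated best with its own number. With 3 libraries per genotype, these correlations cannot settle whether the libraries were paired. The block changed no call among the 10 genes and gave Inhbe -2.33. Pathway lists gave between 13 and 51 calls without single libraries, against 46, and 33 with the block. Of the locus neighbours, between 1 and 2 passed without single libraries, 1 without a filter on low counts, 0 within 50 kb and 10 within 500 kb; the windows hold other genes by construction. The causes of the other changes were not tested. The leaving-out fits compare 2 libraries with 3. Mean TPM of Inhbe over all 6 livers was 9.04 with the longest transcript, 4.57 with the median length and 21.7 with the RefSeq exons. Without mitochondrial and hemoglobin genes, an alternative added after the data were seen together with the RefSeq length, 2857 genes passed. Counts limit Acvr1c, which could not be tested, and Acvr2b and Fstl3, which had at most 69 counts per library.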

Other observations

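Activin E is one of many hormones that hepatocytes secrete, and other genes of this kind moved in both directions. Of 21 other liver-secreted hormone genes tested, 6 were higher and 3 were lower in KO livers, beside 9.8% and 10.6% of all genes tested. Their median log2 fold change was 0.50, beside -0.02 over all genes. Angptl8, an insulin-induced inhibitor of lipoprotein lipase, rose to 46.2 ± 5.49 CPM in KO livers, against 13.7 ± 3.41 CPM in WT livers (SD, n = 3 each; log2 fold change 1.76 ± 0.19 (SE), edgeR adjusted p = 0.00227). Angptl8 passed in all 6 fits that left out a library, as did Gdf15. Lect2, a hepatokine, rose to 88.7 ± 4.56 CPM in KO livers, against 54.0 ± 10.2 CPM in WT livers (edgeR adjusted p = 0.0166), but did not pass without KO liver 1 or WT liver 1. Smoc1, a secreted glycoprotein, fell to 85.2 ± 6.66 CPM in KO livers, against 138 ± 19.1 CPM in WT livers (edgeR adjusted p = 0.0145), but did not pass without KO liver 1. Fgf21 and Rbp4 were also called higher, and Orm1 and Thpo were the others called lower; these 4 were named after their values were seen.

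Markers of rarer cells were low in all livers. Of all genes tested, 9.8% were higher and 10.6% were lower in KO livers. Jchain, made by plasma cells, stood at 7.76 ± 1.65 CPM in KO livers, against 0.488 ± 0.138 CPM in WT livers (SD, n = 3 each; edgeR adjusted p = 6.96e-04), and was the one tested gene of 5 B and plasma cell markers. T and NK cell markers summed to between 1.77 and 3.34 CPM in KO livers and between 0.50 and 0.854 CPM in WT livers, with 1 of 3 tested genes higher (Cd3g, which passed only without WT liver 2). Mesothelial markers summed to between 0.523 and 3.72 CPM in KO livers and between 0.512 and 2.92 CPM in WT livers, with 0 of 3 past the threshold by edgeR, DESeq2 or limma voom or at an unadjusted p under 0.05.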
